A study of Mus musculus with 24 samples.

Results

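RNA of the genes that write, copy, guide or remove DNA methylation was followed through mouse embryonic stem (ES) cells of 6 genotypes, for Dnmt1, Uhrf1, Dnmt3a, Dnmt3b, Dnmt3l and Tdg. They were chosen by symbol as a group of methyltransferases and cofactors, and all 6 had an entry among the 37310 gene entries of each of the 2 deposited tables. The first table covers wild-type cells (WT) and cells without Smchd1 (Smchd1 KO), without Dux (Dux KO) or without either gene (Double KO). The second covers cells in which all 3 Tet genes, Tet1 to Tet3, are knocked out (Tet TKO) and cells that lack Smchd1 as well (quad KO), so the control of quad KO itself lacks the Tet enzymes. Each genotype had 3 biological replicates. Every line grew without feeder cells on gelatin in serum with LIF, a cytokine that keeps ES cells undifferentiated, and total RNA was sequenced after removal of ribosomal RNA. The labels do not say whether the replicates of a knockout are separate clones, so p-values measure the spread between these samples. That spread was pooled over all genotypes of a table. The test of Smchd1 KO against WT thus also carries the spread of Dux KO and Double KO. Values are CPM, read counts scaled to a common library size, and because each table was normalized on its own, genotypes were tested only within a table.

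DNA methylation in mammals sits mostly on cytosines of CpG dinucleotides. DNMT1 copies the marks onto the new strand after replication, and UHRF1 brings it to hemimethylated DNA. DNMT3A and DNMT3B place new marks, and DNMT3L, which has no catalytic activity of its own, binds and stimulates both. TET enzymes oxidise 5-methylcytosine, and TDG, a DNA glycosylase, cuts out the more oxidised forms, which base excision repair then replaces with plain cytosine. SMCHD1 belongs to the SMC proteins, which shape chromosomes, and helps to silence the inactive X and gene clusters. DUX activates genes of the early cleavage-stage embryo. ES cells in serum carry much DNA methylation and express the de novo enzymes together with Dnmt3l. The files hold RNA levels and no methylation values.

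In units of 1e6 gene reads, the libraries of the first table ran from 11.4 to 74.4 and those of the second from 27.3 to 34.6. In the first table depth followed genotype. WT and Smchd1 KO had 2 runs per replicate, of 42.7 to 74.4 and 11.4 to 17.6. Dux KO and Double KO had 1 run of 13.2 to 17.2. The part of this layout in the differences and spreads was not tested. Smchd1 stood at 206 ± 2.28 CPM in WT and 193 ± 19.6 in Dux KO, against 60.4 ± 15.3 in Smchd1 KO and 79.0 ± 8.48 in Double KO, and at 155 ± 5.46 in Tet TKO against 23.4 ± 14.7 in quad KO (SD, n = 3 here and throughout). Tet1, Tet2 and Tet3 RNA was present in Tet TKO at 272 ± 3.21, 337 ± 6.57 and 44.4 ± 1.47 CPM, so the gene-level values do not check those deletions. The entry named Dux had at most 53 reads in any sample, with 6 reads in Dux KO replicate 1 and none in the other two, and it checks little. The 7 measured 2-cell markers, which DUX drives, summed to 10.8 to 13.1 CPM in WT and to at most 0.149 in Dux KO and 0.416 in Double KO. Of 13 measured naive ES cell markers none was without reads in any genotype, and their sum ran from 2776 CPM in Double KO replicate 1 to 5271 in Smchd1 KO replicate 2. The noise ratio, in which 1 stands for a difference no larger than counting error, was 1.49 to 1.90 between WT replicates, below the 2.28 to 2.86 between technical runs of a WT replicate, and 1.39 to 1.73 between Tet TKO replicates. It was 3.64 to 10.7 in quad KO, 15.7 to 30.4 in Dux KO and 16.9 to 30.7 in Double KO, each above the range of WT.

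In the GRCm38 annotation, Dnmt1 (ENSMUSG00000004099.8) lies at chr9:20907209-20959888 on the minus strand, and the other members lie on the plus strand. These are Uhrf1 (ENSMUSG00000001228.8) at chr17:56303321-56323486, Dnmt3a (ENSMUSG00000020661.9) at chr12:3806007-3914443, Dnmt3b (ENSMUSG00000027478.9) at chr2:153649450-153687730, Dnmt3l (ENSMUSG00000000730.7) at chr10:78041947-78063622 and Tdg (ENSMUSG00000034674.11) at chr10:82629828-82650799. For 3 of the 6, other genes hold sequence that can share reads with them. Of the 50-base words in the annotated transcripts of Tdg, 41.2% also occur in another gene, led by the copies Tdg-ps and Gm9855, and Gm9855 itself stood at 9.18 to 16.2 CPM in the 18 samples. For Uhrf1 the share was 15.4%, mostly with Gm5648, which had at most 1.39 CPM. For Dnmt3b it was 9.81%, mostly with its tandem copy Dnmt3c, listed here as Gm14490 and at most at 0.356 CPM. The share was 0.76% for Dnmt1, 0.54% for Dnmt3a and 0.63% for Dnmt3l. Dnmt3l overlaps the 5′ part of Aire by 1664 bases on the opposite strand, and Dnmt3a overlaps Dnmt3aos by 2952 bases on the opposite strand. Whether strand was used in counting is not given in the sources used here, so reads in those stretches cannot be told apart.

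**Figure D1:**
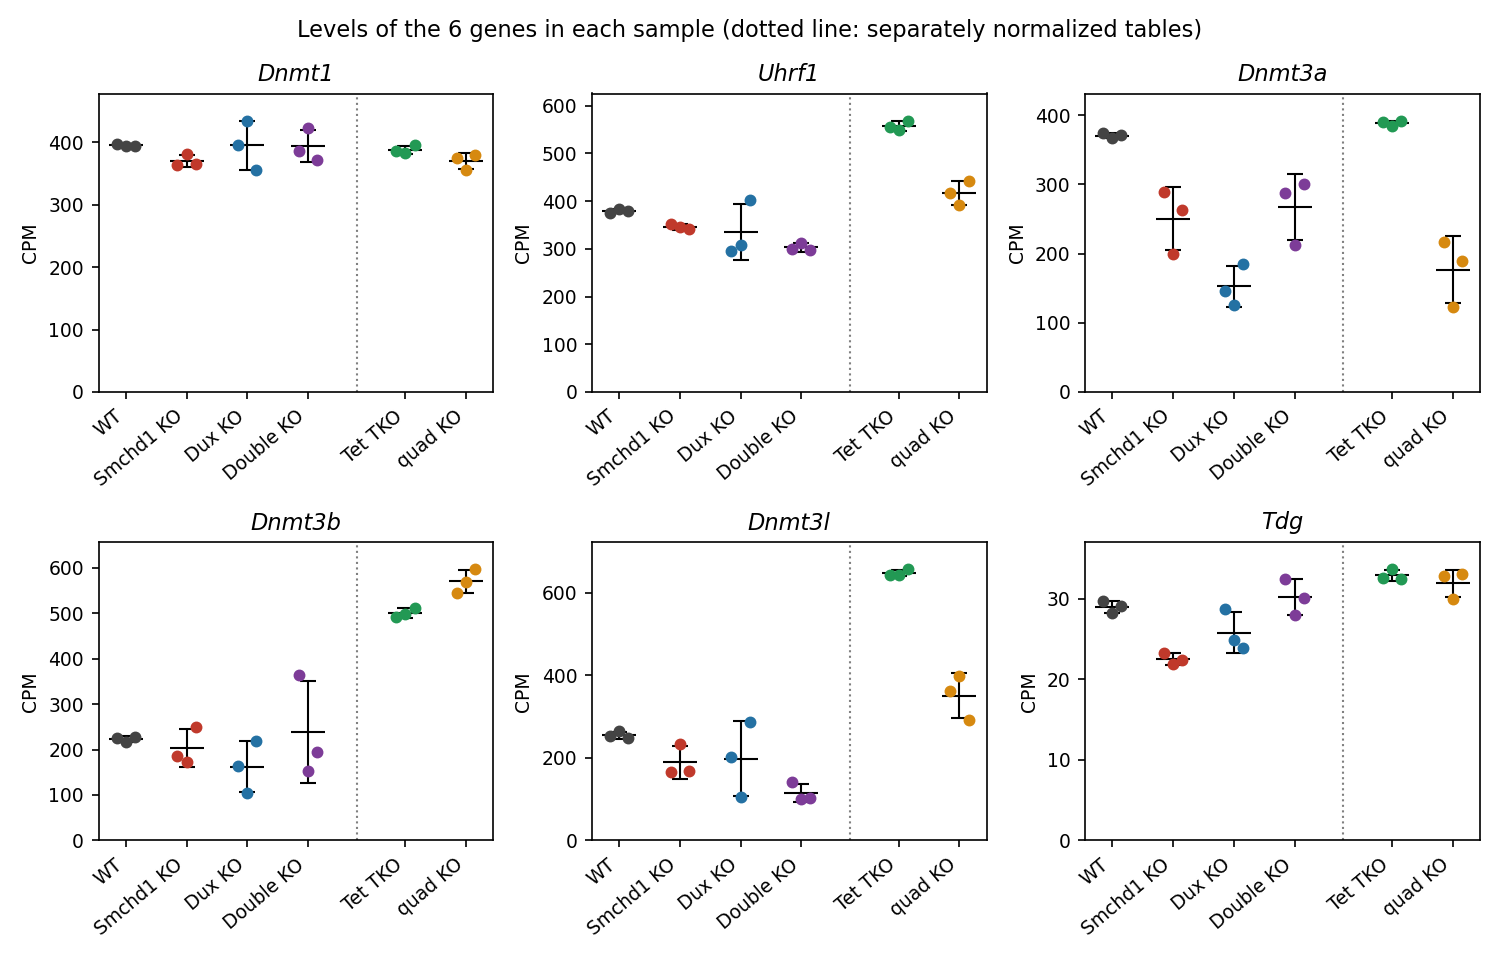
Levels of the 6 genes (CPM, linear axis from 0) in each sample: points are biological replicates 1 to 3 from left to right, and the bar and whiskers are the mean ± SD of 3 samples. Dnmt3a lay between 367 and 374 CPM in WT and at or below 300.3 in each of the 9 knockout samples of the first table, while Dnmt1 ranged only from 356 to 435 in that table.

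Dnmt1, the maintenance enzyme, differed little between genotypes. It read 398, 395 and 394 CPM in WT, 363, 381 and 365 in Smchd1 KO, 395, 435 and 356 in Dux KO and 387, 422 and 373 in Double KO. The 12 samples thus lay within a narrow band, and the samples of Dux KO and Double KO spanned those of WT. In order of mean level, WT (395 ± 2.25), Dux KO (395 ± 39.3) and Double KO (394 ± 25.7) overlapped one another, and Smchd1 KO (370 ± 9.61) was lowest and overlapped Double KO and Dux KO but not WT (with quantile normalization its log2 difference from WT was 0.03 in place of -0.10). Dnmt1 did not pass the test (limma, adjusted p under 0.05) in any comparison, and the 95% intervals of its log2 differences from WT were -0.32 to 0.13 for Smchd1 KO and -0.23 to 0.22 for both Dux KO and Double KO. In the second table it read 387, 382 and 395 CPM in Tet TKO and 374, 355 and 380 in quad KO. All 3 quad KO samples were below the lowest Tet TKO sample, and the difference of -0.07 on the log2 scale (95% interval -0.16 to 0.02) did not pass (adjusted p = 0.187, limma).

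Uhrf1, whose product recruits DNMT1, differed more. It read 375, 384 and 379 CPM in WT, 352, 345 and 341 in Smchd1 KO, 296, 307 and 402 in Dux KO and 299, 313 and 297 in Double KO. Every Smchd1 KO and Double KO sample was below WT, while Dux KO replicate 3 was above it. From WT (379 ± 4.25) the means descended through Smchd1 KO (346 ± 5.47) and Dux KO (335 ± 58.4) to Double KO (303 ± 8.72), with Dux KO overlapping each of its neighbours. The difference of Double KO from WT was -0.32 ± 0.12 (log2, SE), 1.25-fold lower, and did not pass (adjusted p = 0.139). In the second table Uhrf1 read 555, 550 and 569 CPM in Tet TKO and 417, 391 and 442 in quad KO, so the groups were well apart. It fell by 0.42 ± 0.05 on the log2 scale, 1.34-fold (adjusted p = 0.000578, limma).

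Beside the de novo genes, the 250 bases upstream of their RefSeq starts are shown because these genes differ there in how many CpG, the dinucleotide their products methylate, they hold. Coordinates are those of GRCm38.p6, not of the build mm9 named for the alignments, all 4 windows lie on the plus strand, and CpG dinucleotides are in capitals. Dnmt3a is given at its first RefSeq start (chr12:3806730-3806979) and at the internal start of the shorter form DNMT3A2, which ES cells use (chr12:3891494-3891743), Dnmt3b at chr2:153649199-153649448 and Dnmt3l at the second of its 3 starts (chr10:78049592-78049841).
Dnmt3a, first start: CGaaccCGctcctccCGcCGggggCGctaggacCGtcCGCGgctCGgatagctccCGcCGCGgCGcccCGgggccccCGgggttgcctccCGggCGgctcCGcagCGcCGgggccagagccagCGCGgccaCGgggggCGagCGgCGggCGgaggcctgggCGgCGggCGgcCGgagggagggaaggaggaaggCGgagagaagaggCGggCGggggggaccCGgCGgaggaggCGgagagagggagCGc
Dnmt3a, internal start: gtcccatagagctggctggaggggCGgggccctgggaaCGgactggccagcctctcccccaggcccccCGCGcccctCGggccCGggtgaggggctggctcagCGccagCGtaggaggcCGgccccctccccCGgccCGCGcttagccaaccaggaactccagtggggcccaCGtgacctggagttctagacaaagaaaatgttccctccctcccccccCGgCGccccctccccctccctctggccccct
Dnmt3b: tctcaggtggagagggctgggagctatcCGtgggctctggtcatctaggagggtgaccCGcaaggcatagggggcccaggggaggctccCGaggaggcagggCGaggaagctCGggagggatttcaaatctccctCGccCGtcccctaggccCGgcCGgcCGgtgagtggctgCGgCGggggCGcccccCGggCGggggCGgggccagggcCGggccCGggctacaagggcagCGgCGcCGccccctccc
Dnmt3l: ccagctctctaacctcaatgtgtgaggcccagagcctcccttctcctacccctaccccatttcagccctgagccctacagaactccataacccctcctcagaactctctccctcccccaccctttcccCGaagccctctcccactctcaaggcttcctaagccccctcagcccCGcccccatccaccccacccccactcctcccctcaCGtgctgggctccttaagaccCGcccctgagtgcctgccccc
The Dnmt3a windows shown hold 38 and 15 CpG, and 1.9% and 27.3% of all 32851 such windows hold as many or more. A further Dnmt3a window, not shown (chr12:3806910-3807159), holds 40 (1.3% hold as many or more). The Dnmt3b window holds 21 (16.3% hold as many or more). The Dnmt3l window holds 4 (62.2%), and the windows at its other two starts hold 5 and 3, below the median of 6 over all windows. The tables sum the transcripts of a gene, so they do not say which start of Dnmt3a or Dnmt3l gave the reads.

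Dnmt3a was lower than in WT in every knockout sample of the first table. It read 374, 367 and 371 CPM in WT, 289, 200 and 264 in Smchd1 KO, 146, 126 and 185 in Dux KO and 288, 212 and 300.3 in Double KO. All 9 knockout samples of the first table were below the lowest WT sample, which held for 7.53% of the 16200 genes tested and for no other member. The order of the means was WT (371 ± 3.75), Double KO (267 ± 47.8), Smchd1 KO (251 ± 45.9) and Dux KO (152 ± 29.6). Double KO and Smchd1 KO overlapped, and each Dux KO sample was below each sample of the other genotypes.

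In Dux KO, Dnmt3a fell by 1.30 ± 0.18 on the log2 scale, 2.46-fold (adjusted p = 0.00655, limma). The differences of Smchd1 KO (-0.58 ± 0.18, adjusted p = 0.161) and Double KO (-0.49 ± 0.18, adjusted p = 0.137) from WT did not pass. Cells that lacked both Smchd1 and Dux had 1.75-fold more Dnmt3a RNA than cells that lacked Dux alone, with all 3 samples higher, and this did not pass either (adjusted p = 0.178). The difference between the Smchd1 contrast without Dux and that with Dux, the interaction, was 1.39 ± 0.25 and passed (adjusted p = 0.0358). The call in Dux KO was lost when any 1 of the 3 WT replicates was left out (adjusted p 0.0513 to 0.055, log2 difference -1.30 to -1.29). The interaction was lost in 14 of 24 alternatives, among them without any 1 WT replicate (0.12 to 0.132), without any 1 Smchd1 KO replicate (0.0676 to 0.0945), without Dux KO replicate 2 (0.0947), without Double KO replicate 1 (0.0843) and with edgeR (0.0737).

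The second table showed Dnmt3a lower as well. It read 390, 385 and 391 CPM in Tet TKO and 217, 123 and 190 in quad KO. Each quad KO sample was far below Tet TKO, and the quad KO samples differed among themselves by more than the Tet TKO samples did. Dnmt3a fell by 1.18 ± 0.18 on the log2 scale, 2.26-fold (adjusted p = 0.00199). The median of all genes on chromosome 12, relative to the mean of the reference genotype, was -0.25 in Dux KO replicate 1, -0.12 in quad KO replicate 1 and -0.16 in quad KO replicate 2. With the chromosome medians centred the Dnmt3a differences were -1.23 (adjusted p = 0.0135) in Dux KO and -1.09 (adjusted p = 0.00213) in quad KO.

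Dnmt3b, the second de novo enzyme, varied widely within the knockout genotypes of the first table. It read 226, 216 and 228 CPM in WT, 186, 174 and 250 in Smchd1 KO, 163, 105 and 218 in Dux KO and 365, 153 and 195 in Double KO. In each knockout genotype 1 sample lay within or above the range of WT and the others lay below it. The means were 238 ± 112 in Double KO, 223 ± 6.63 in WT, 203 ± 41.1 in Smchd1 KO and 162 ± 56.3 in Dux KO, and each overlapped its neighbours. Its SD on the log2 scale was 0.28 in Smchd1 KO, 0.53 in Dux KO and 0.65 in Double KO, against a median over all genes of 0.12, 0.30 and 0.31. Dnmt3b did not pass in any comparison of the first table, and the 95% interval of its difference from WT in Double KO ran from -0.67 to 0.65.

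Dnmt3b was the 1 member that rose in quad KO. It read 491, 499 and 511 CPM in Tet TKO and 546, 568 and 597 in quad KO. The groups did not overlap, and the rise was small, 0.19 ± 0.04 on the log2 scale or 1.14-fold (adjusted p = 0.0101). It was lost without Tet TKO replicate 1 (adjusted p = 0.0506).

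Dnmt3l, the stimulatory partner, was lowest where both Smchd1 and Dux were missing. It read 252, 265 and 249 CPM in WT, 165, 234 and 168 in Smchd1 KO, 202, 105 and 287 in Dux KO and 141, 101 and 104 in Double KO. All Double KO and Smchd1 KO samples were below WT, and Dux KO replicates fell on both sides of it. From WT (255 ± 8.27) the means descended through Dux KO (198 ± 91.1) and Smchd1 KO (189 ± 39.1) to Double KO (115 ± 22), and Dux KO overlapped all other genotypes. The difference of Double KO from WT was -1.16 ± 0.29 (log2), 2.24-fold lower, and missed the threshold (adjusted p = 0.0583, limma). Over 20 alternatives the adjusted p ran from 0.00499 to 0.226 with the same direction. The median of the genes on chromosome 10, where Dnmt3l and Tdg lie, was -0.19 in Double KO replicate 1 and -0.11 in Dux KO replicate 1. It ran from -0.05 to -0.01 in the other samples of these genotypes.

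In the second table Dnmt3l read 644, 644 and 658 CPM in Tet TKO and 363, 398 and 291 in quad KO. All quad KO samples were far below Tet TKO. It fell by 0.90 ± 0.10 on the log2 scale, 1.87-fold (adjusted p = 0.000521). Aire, which overlaps its 5′ end on the other strand, read 27.4, 28.3 and 26.8 CPM in Tet TKO and 4.58, 3.32 and 4.09 in quad KO, and 8.14 to 60.9 in the first table; its part in the Dnmt3l values was not tested.

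Tdg, the glycosylase, had the fewest reads of the 6 genes. It read 29.8, 28.3 and 29.1 CPM in WT, 23.3, 21.9 and 22.4 in Smchd1 KO, 28.7, 24.9 and 23.9 in Dux KO and 32.5, 28.0 and 30.2 in Double KO. Smchd1 KO was below every sample of the other genotypes. The means were 30.2 ± 2.24 in Double KO, 29.1 ± 0.745 in WT, 25.8 ± 2.53 in Dux KO and 22.5 ± 0.731 in Smchd1 KO, and Double KO overlapped WT as WT overlapped Dux KO. The difference of Smchd1 KO from WT was -0.36 ± 0.12 (1.28-fold lower, adjusted p = 0.183), and that of Double KO from Smchd1 KO was 0.41 ± 0.12 (1.33-fold higher, adjusted p = 0.0655). Neither passed. Its near-identical copy Gm9855 stood at 13.4 ± 0.515 CPM in WT and 10.1 ± 0.0183 in Smchd1 KO. In the second table Tdg read 32.7, 33.7 and 32.5 CPM in Tet TKO and 32.8, 30.0 and 33.1 in quad KO, and the groups overlapped (adjusted p = 0.585).

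**Figure D2:**
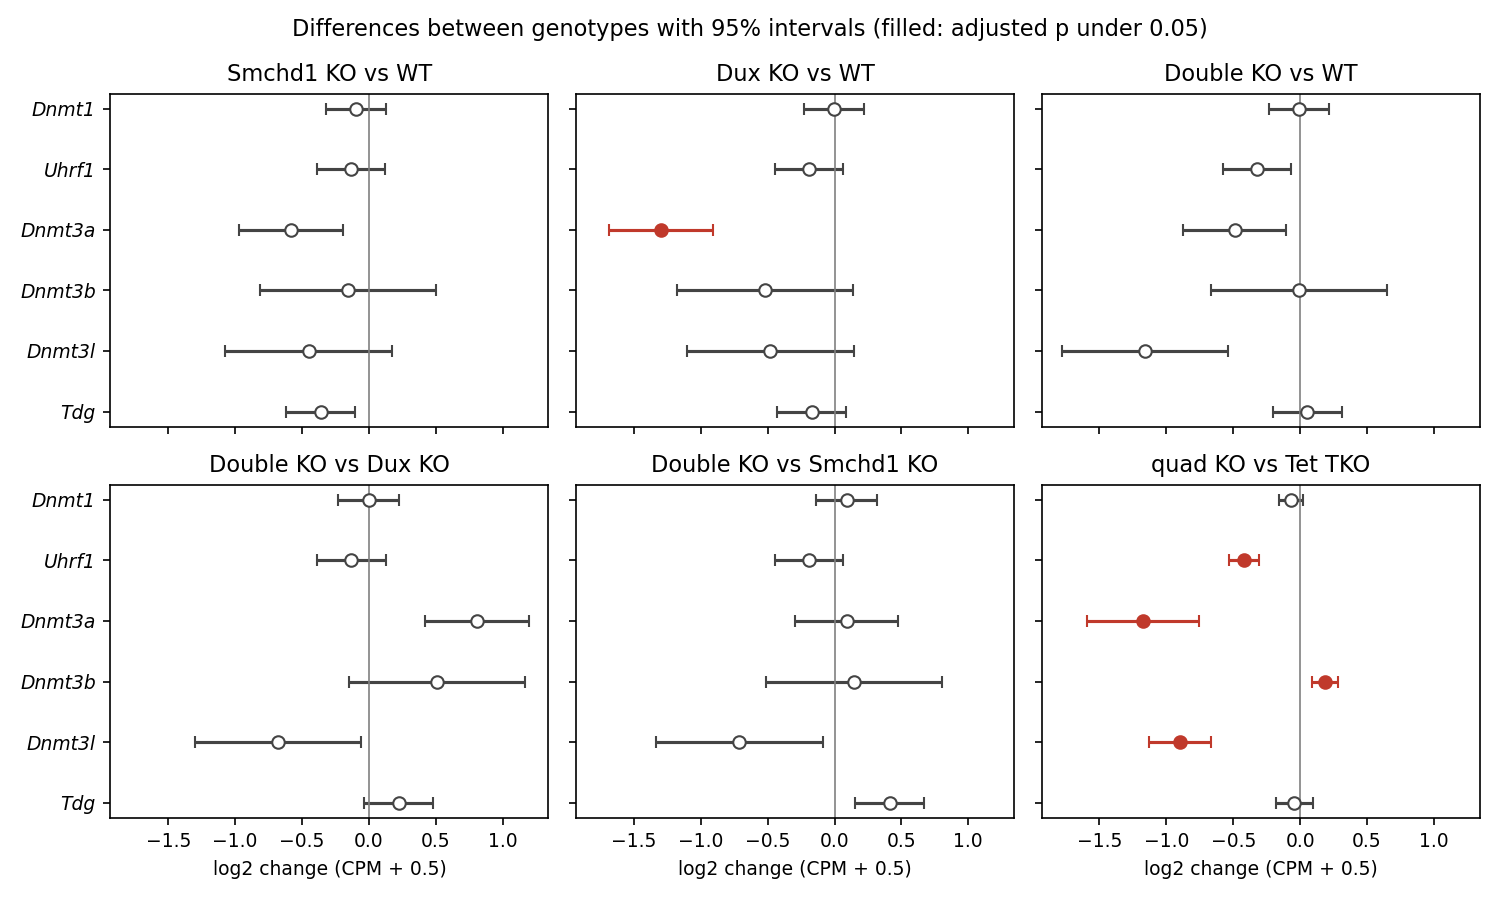
Log2 differences of the 6 genes (x axis, log2 of CPM + 0.5) in 6 comparisons with 95% intervals from limma, 3 samples a group: filled points passed at an adjusted p under 0.05. Dnmt3a in Dux KO (-1.30) passed in the first table, and Uhrf1, Dnmt3a, Dnmt3l (lower) and Dnmt3b (higher) passed in quad KO against Tet TKO.

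Counted by comparison, quad KO against Tet TKO called 4 of the 6 genes, 3 lower and 1 higher. That comparison called 37.7% of 14920 genes, 20.6% lower and 17.1% higher, so calls were common among all genes. At an unadjusted p under 0.05 there were 4 members, beside 47.8% of all genes. All 3 samples of quad KO lay below Tet TKO for 4 members and above it for 1, beside 28.2% and 25.1% of all genes. The median difference of the members was -0.24 on the log2 scale and that of all genes -0.01. Whole chromosomes were shifted in all 3 quad KO samples. Relative to Tet TKO, gene medians were -0.21 to -0.28 on chromosome 6, -0.18 to -0.27 on chromosome 8 and -0.21 to -0.24 on X. No member lies on these chromosomes. The part of these shifts, or of other differences between the lines, in the member values was not tested.

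Dux KO against WT called 1 of 6 members, Dnmt3a, beside 3.98% of 16200 genes (2.35% lower). That member alone had an unadjusted p under 0.05, beside 26% of all genes, and alone lay below WT in all samples, beside 23.1%. Smchd1 KO against WT called 0 of 6 with limma, beside 0.889% of all genes. At an unadjusted p under 0.05 there were 2 members, Dnmt3a and Tdg, beside 16.4% of all genes, edgeR called 0 and DESeq2 called 1, Tdg. Limma fitted on only WT and Smchd1 KO called 4, Uhrf1 (adjusted p = 0.0196), Dnmt3a (0.00875), Dnmt3l (0.026) and Tdg (0.00204). The genes called in this comparison ran from 51 to 9292 over the settings tried, and the share of all genes for each setting is not given here. Nothing particular to the members is read from the member counts of that fit, edgeR or DESeq2. All Smchd1 KO samples lay below WT for 5 of 6 members, beside 29.6% of all genes, and 57.7% of genes did not overlap in either direction. The smallest p that an exact permutation of 3 against 3 samples can give is 0.1.

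Double KO against WT called 0 of 6 with limma, beside 1.57% of all genes, with 3 members at an unadjusted p under 0.05 (Uhrf1, Dnmt3a and Dnmt3l, beside 23.1% of all genes), 0 by edgeR and 1 by DESeq2 (Dnmt3l). The same 3 lay below WT in all samples, beside 21% of all genes. Double KO against Dux KO called 0 of 6, beside 0.0123% of all genes, with 2 at an unadjusted p under 0.05 (Dnmt3a and Dnmt3l, beside 9.77%), 0 by edgeR and 1 by DESeq2 (Dnmt3a). Only Dnmt3a was apart in all samples, higher, beside 3.05% of all genes. Double KO against Smchd1 KO called 0 of 6, beside 4.38%, with 2 at an unadjusted p under 0.05 (Dnmt3l and Tdg, beside 25.1%), 0 by edgeR and 1 by DESeq2 (Tdg). Uhrf1 and Dnmt3l were lower in all samples and Tdg higher, beside 16.7% and 13% of all genes. The interaction called 1 member, Dnmt3a, beside 0.512% of all genes (0.154% higher), and Dnmt3a and Tdg had an unadjusted p under 0.05, beside 17.4%. The shares of all genes called by edgeR and DESeq2 are not given here, so nothing particular to the members is read from those counts. These comparisons share their control samples, so their values are given side by side and were not counted against each other.

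Markers of other cell types moved with some of these values. In each knockout genotype of the first table, the sample with the most Dnmt3b was also the highest in the summed extraembryonic endoderm markers (10 genes, with 11 entries). The sums were 1310, 943 and 3247 CPM in Smchd1 KO, 848, 566 and 1604 in Dux KO and 3032, 639 and 398 in Double KO, against 844 to 863 in WT. Summed trophoblast markers (8 measured genes) were highest in the same 3 samples, at 187, 212 and 733 CPM against 72.1 to 77.5 in WT. Afp, an endoderm marker, had no reads in Dux KO, an entry of Dab2 had none in any genotype, and of the fibroblast markers Dcn and Lum had none in Dux KO and Double KO. In bulk RNA, fewer cells of a type and less RNA per cell cannot be told apart.

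**Figure D3:**
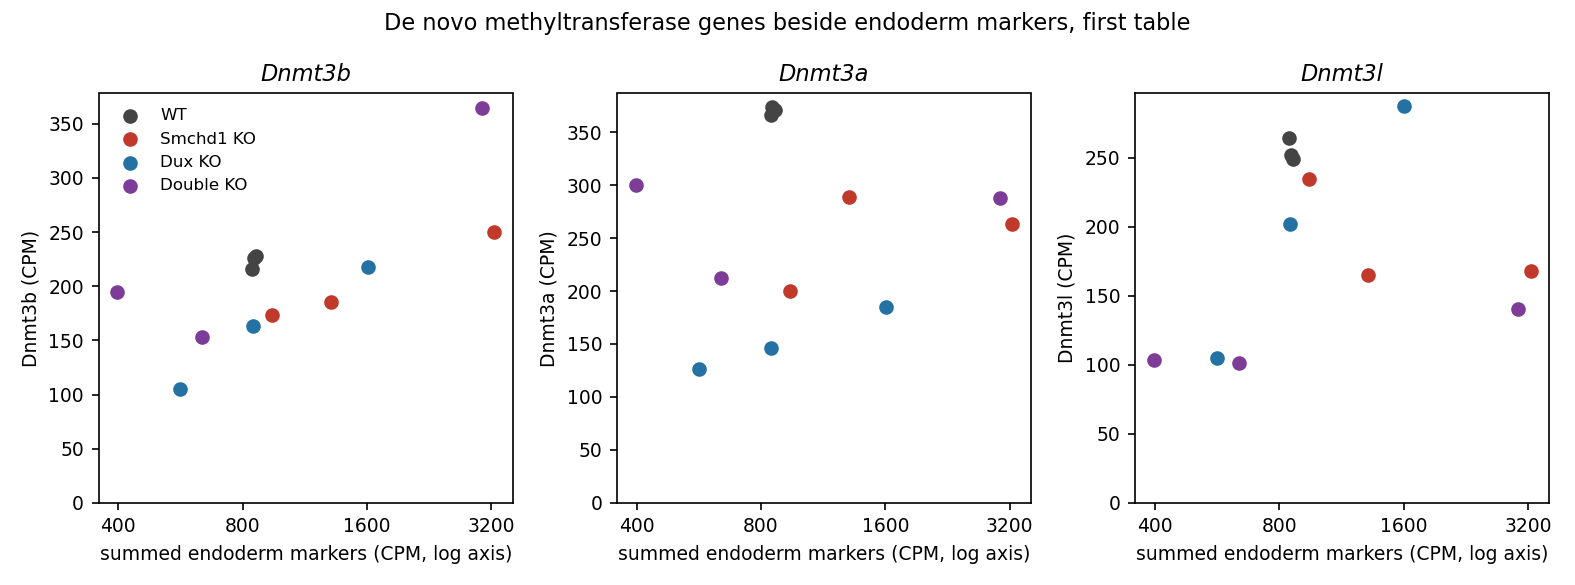
Dnmt3b, Dnmt3a and Dnmt3l (CPM, y axis from 0) against the summed extraembryonic endoderm markers (CPM, log axis) in the 12 samples of the first table. The highest Dnmt3b value of Smchd1 KO (250), Dux KO (218) and Double KO (365) is in the sample with the highest marker sum of its genotype, and the WT samples lie close together.

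A fit without those 3 samples was added after the data were seen. The samples left out are also the highest of their genotype for Dnmt3b, in Dux KO for Uhrf1, Dnmt3a and Dnmt3l and in Double KO for Dnmt3l, so lower values follow from leaving them out and support nothing about these genes. In that fit Dnmt3a was at -1.44 in Dux KO against WT (adjusted p = 0.00739), and its interaction no longer passed (1.51, adjusted p = 0.0513). The part of other cell types in the member values was not tested. In the second table the endoderm sum of Tet TKO was 707 to 726 CPM (quad KO, 672 to 820), its trophoblast sum 229 to 237 (quad KO, 278 to 526) and its fibroblast sum 391.7 to 412 (quad KO, 542 to 612). Of 9 endoderm entries that passed the filter, 3 rose and 3 fell. Of 7 trophoblast entries 4 rose and 1, Gata3, fell, and of 7 fibroblast entries 4 rose and 0 fell. The part of these cell types in the quad KO values was not tested. The naive ES cell markers summed to 4153 to 4265 CPM with the Tet knockouts alone and 3215 to 3336 in quad KO, and 9 of 13 fell, 2 rose and 2 did not pass. Nanog, a core factor of the naive state, fell 5.28-fold, from 265 ± 11.8 to 52.4 ± 18.8 CPM (adjusted p = 0.00038). Of 7 primed epiblast entries that passed the filter 3 rose and 2 fell.

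The other genes of the methylation pathway are given for quad KO against Tet TKO beside the share of all genes called there, 37.7% (20.6% lower and 17.1% higher). The maintenance, repair and S phase lists had more falls and fewer rises than those shares, and the de novo and methyl donor lists lay near them. The lists were not tested as sets, and nothing particular to a list is read from its count. Of 12 partners of maintenance methylation 6 fell and 6 did not pass, led by Lig1, the ligase of the lagging strand (329 ± 9.77 to 249 ± 8.68 CPM, log2 -0.40, adjusted p = 0.000363), Zbtb24 (-0.33) and Trim28 (-0.32), the corepressor of KRAB zinc finger proteins. Of 19 partners and guides of the de novo enzymes 5 fell and 3 rose. Prdm14, a repressor of Dnmt3 genes in naive cells, fell 4.52-fold from 9.12 ± 0.337 to 1.72 ± 0.712 CPM (adjusted p = 0.000476), and Whsc1, a methyltransferase of histone H3 lysine 36, fell from 108 ± 3.15 to 61.0 ± 1.80 CPM (adjusted p = 4.14e-05). Suv39h1, a methyltransferase of histone H3 lysine 9, rose 1.61-fold (adjusted p = 0.000786).

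Of 21 genes of oxidation and base excision repair 8 fell and 1 rose in quad KO, beside 20.6% and 17.1% of all genes. Apobec1, a cytidine deaminase, fell 1.62-fold (adjusted p = 0.00172), Tet2 1.43-fold (adjusted p = 7.57e-05) and Ung, which removes uracil, 1.36-fold (adjusted p = 0.00126). Gadd45g rose 1.36-fold (adjusted p = 0.00508). With chromosome medians centred the Apobec1 difference was -0.44 in place of -0.70 on the log2 scale (adjusted p = 0.0112). Both genotypes carry the Tet knockouts, so the Tet2 value compares the RNA of a disrupted gene. The medians of these lists were -0.16, -0.01 and -0.20 on the log2 scale for maintenance, de novo and repair, beside -0.01 for all genes.

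Genes of S phase, when DNMT1 and UHRF1 act and are made, fell in quad KO in the same libraries: 14 of 23 fell, beside 20.6% of all genes, 9 did not pass, and the median was -0.19. Among them E2f1 fell 1.56-fold (39.1 ± 0.758 to 25.0 ± 1.40 CPM, adjusted p = 0.000278), Gins2 1.44-fold (adjusted p = 0.00119), Mcm2 1.37-fold (adjusted p = 0.000578) and Rrm2 1.37-fold (adjusted p = 0.000261). With chromosome medians centred, Mcm2 was at -0.20 in place of -0.46 on the log2 scale (adjusted p = 0.0149) and Gins2 at -0.30 in place of -0.53 (adjusted p = 0.0155). Whether the cells differed in their cycle was not tested. Leaving out 1 Tet TKO library lowered the number that fell to 9 of the S phase genes (without replicate 1), 3 of the maintenance partners (replicate 2), 3 of the de novo partners (replicate 1), 4 of the repair genes (replicate 3) and 1 of the donor cycle described next (replicate 2).

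Readers of methylated or unmethylated CpG went both ways, with 4 of 12 higher and 2 lower (0 lower with the replicate block), beside 17.1% higher and 20.6% lower of all genes. Zbtb4 (0.41, adjusted p = 0.0444) and Mbd2 (0.33, adjusted p = 0.00592) rose most, and Zbtb38 fell (-0.35, adjusted p = 0.0385). Of the 13 genes of the methyl donor cycle that passed the filter, 3 fell and 2 rose, beside the same shares of all genes. Gldc, the glycine decarboxylase that feeds one-carbon units, fell 2.40-fold (116 ± 1.19 to 48.6 ± 7.85 CPM, adjusted p = 0.000177). Of the 24 pathway genes named by the rule in this comparison (up to 4 per list), 17 kept their call in all 16 alternatives. The calls of Zbtb4, Zbtb38, Cxxc1, Hells, Zbtb24, Mat2a and Shmt2 were each lost without at least 1 library (highest adjusted p 0.159).

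**Figure D4:**
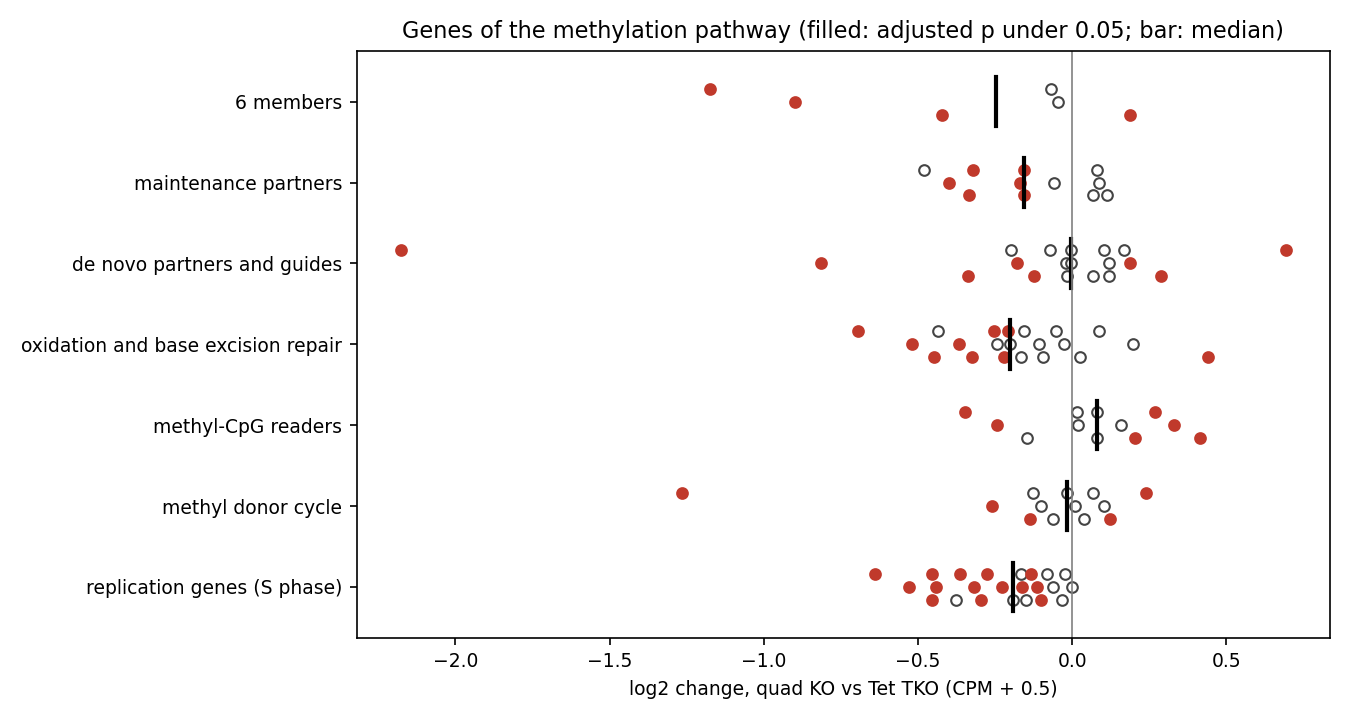
Log2 differences between quad KO and Tet TKO (x axis, log2 of CPM + 0.5) for the 6 members and the genes of 6 fixed lists; each point is a gene, filled where the adjusted p was under 0.05, and the black bar is the median of the list. Of the S phase genes 14 of 23 fell and none rose, and the members Dnmt3a (-1.18) and Dnmt3l (-0.90) lie below every S phase gene.

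In the first table the pathway genes that passed were fewer. Mat2a, which makes S-adenosylmethionine, the methyl donor of all the DNMTs, read 546, 501 and 528 CPM in WT and 248, 225 and 262 in Smchd1 KO. Each Smchd1 KO sample was far below WT, and Mat2a fell 2.14-fold (log2 -1.10 ± 0.19, adjusted p = 0.0176), the 1 gene of the 6 lists that passed in that comparison, which called 0.889% of all genes. It read 519, 281 and 312 CPM in Dux KO and 488, 399 and 466 in Double KO. Double KO was 1.83-fold above Smchd1 KO (adjusted p = 0.0302), and the interaction was 1.43 (adjusted p = 0.0397). The call against WT was lost without any 1 library of either genotype (adjusted p 0.0575 to 0.111). The median of the genes on chromosome 6, where Mat2a lies, was -0.46 in Smchd1 KO replicate 2, -0.44 in Dux KO replicate 2 and -0.49 in Double KO replicate 3, and near 0 in the other two Smchd1 KO samples. With chromosome medians centred the Mat2a difference was -0.95 in Smchd1 KO (adjusted p = 0.0671). Mat2a fell 1.20-fold in quad KO (adjusted p = 0.0121), where the chromosome 6 median was -0.21 to -0.28, and the centred difference was -0.01 (adjusted p = 0.96).

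In Dux KO, 2 of 12 maintenance partners, 2 of 13 genes of the donor cycle, 2 of 12 readers and 3 of 23 S phase genes passed, each lower than in WT, beside 2.35% of all genes. They were Cdca7l (67.3 ± 1.20 to 38.8 ± 9.23 CPM, adjusted p = 0.0315) and Cdca7 of the maintenance partners, Cdca7 being a partner of the HELLS remodeller, Shmt2 and Ahcy of the donor cycle, Mbd3 and Kdm2b of the readers, and Ccne1, Gins2 and Slbp of S phase. Their log2 differences ran from -0.53 for Ahcy and Kdm2b to -0.81 for Cdca7l. In Double KO, Cdca7 (-0.58, adjusted p = 0.0482) and Gins2 (-0.76, adjusted p = 0.0453) passed against WT. Against Smchd1 KO, Atrx (0.60, adjusted p = 0.0389) passed higher beside Mat2a, and Gins2 (-0.93, adjusted p = 0.0123) and Tk1 (-0.52, adjusted p = 0.0484) lower. Every call against WT was lost when any 1 WT replicate was left out (adjusted p 0.11 to 0.187 in Dux KO and 0.178 to 0.212 in Double KO), and those against Smchd1 KO were each lost without at least 1 Smchd1 KO replicate (up to 0.196). With the replicate number as a block, the calls over all genes fell from 255 to 25 in Double KO against WT, and the pathway calls in Dux KO and Double KO against WT were lost (from Slbp at adjusted p = 0.0769 to Cdca7 and Gins2 in Double KO at 0.133).

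The genes whose profile was most like that of a member were taken over the 12 samples of the first table, which share their genotypes and libraries, from 11026 genes, as a description. For Dnmt3a they were Odc1, the ornithine decarboxylase (r = 0.955), and Plcxd2 (0.94), with r = 0.428 and 0.959 over the 6 samples of the second table. For Dnmt3l they were Cth, the cystathionine gamma-lyase (0.94), G6pdx, the glucose-6-phosphate dehydrogenase (0.911), and Acaa1a (0.89), with 0.537, 0.914 and 0.935 in the second table. For Dnmt3b, Arhgap1, Ptpn11 and Bspry had r of 0.955, 0.953 and 0.944, and 0.728, -0.455 and 0.714 in the second table. For Tdg, Ubr1, Bicd1 and 2510012J08Rik had 0.96, 0.96 and 0.953, and 0.041, 0.715 and 0.713.

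For the genes most like Dnmt1 and Uhrf1, r was low or negative in the second table. All such genes were picked for a high r in the first table, so a lower r elsewhere is no finding about a member. For Dnmt1, Gm16536, Arhgef11 and Bbs12 had r of 0.954, 0.934 and 0.933 in the first table and -0.58, -0.772 and -0.32 in the second. For Uhrf1, Abhd14a, Slc25a46 and Rilpl2 had 0.97, 0.964 and 0.956, and -0.358, 0.088 and -0.659. Among the members themselves, Uhrf1 and Dnmt3l were most alike in the first table (r = 0.807, and 0.866 in the second). Dnmt3a and Dnmt3b had r = 0.664 over the first table and -0.868 over the second, where the 3 samples of each genotype form separate groups.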

How the data were processed

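RNA was measured in 18 biological samples as 24 libraries. Per the submitters' processing notes, the authors used Trim Galore, STAR 2.5.1, limma 3.38.2 and the build mm9; the counter and annotation are not given in the sources used here. What the authors deposited is, for each gene, a normalized signal: CPM of an effective library size. Whole reads were recovered: 100% of low values (up to 200 reads) were whole within 0.1 read. The table with Tet TKO also holds 3 columns named WT. They could not be matched to a listed sample and were left out, so Tet TKO and quad KO were not compared with WT.

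Technical runs of WT and Smchd1 KO were averaged and counted once. The 6 Smchd1 KO columns carry no sample number and were joined into 3 pairs by least difference (noise ratio 1.81 to 2.32 within and 3.14 to 13.0 between pairs), so their replicate numbers are only names. Genes had to reach 0.5 CPM in 3 samples. Their log2(CPM + 0.5) entered limma 3.58.1 in R 4.3.3 (intensity trend, all genotypes of a table in 1 fit; two-sided, Benjamini-Hochberg over 16200 or 14920 genes, threshold 0.05). Fold changes are on that scale, which understates low genes. Reads were tested with edgeR 4.0.16 and DESeq2 1.42.0. Named are the 6 members, at most 4 called genes per list and comparison (largest change first), and 3 most similar genes per member with a mean of at least 5 CPM, of which 1 is not reported here. Members and lists were chosen with earlier results of these data known. Scripts were tested on simulated data. Promoter sequences are from RefSeq (GRCm38.p6; all 6 members matched), and shared 50-base words from GENCODE transcripts of GRCm38.

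Deviations of same-numbered samples of WT and Double KO had correlations of 0.111, 0.365 and 0.119, and those of WT and Dux KO had 0.317, 0.234 and 0.055. Most of these were low, and each sample matched its own number best. The alternatives were other pseudocounts and filters, edgeR, DESeq2, quantile normalization, array quality weights, only the compared genotypes, single technical runs, chromosome medians centred, the replicate block, each replicate left out, and, chosen after seeing the data, the 3 samples highest in endoderm markers left out.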

Additional observations from a re-analysis of the deposited data

Results flagged for a closer look

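The Smchd1 contrast differed with Dux present or absent, by the test of the difference itself, for 1 member and for 1 pathway gene. For Dnmt3a the log2 difference between the contrasts was 1.39 (adjusted p = 0.0358, limma): Smchd1 KO was at -0.58 against WT, with all 3 samples lower, and Double KO at 0.81 against Dux KO, with all 3 samples higher. For Mat2a it was 1.43 (adjusted p = 0.0397). The Dnmt3a value missed the threshold in 14 of 24 alternatives and the Mat2a value in 17 of 24, with the same direction in each.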

How the results depend on the processing

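In quad KO against Tet TKO, Dnmt3a, Dnmt3l and Uhrf1 were called under all 16 alternatives, and the 4 member calls became 3 without Tet TKO replicate 1. In the first table the numbers of called members moved. Against WT, Smchd1 KO had 0 members, but 1 with DESeq2, 4 with only the compared genotypes and 5 with array quality weights. Dux KO had 1, but 4 with array quality weights, 3 without the 3 samples highest in endoderm markers (chosen after seeing the data; these samples are also the highest of their genotype for Dnmt3b) and 0 to 2 without 1 replicate. Double KO had 0, but 1 with DESeq2, with only the compared genotypes, with technical run 1 and without the endoderm-marker samples, 2 with array quality weights, and 0 to 1 without 1 replicate. Double KO against Dux KO had 0, but 1 with DESeq2 and 0 to 1 without 1 replicate. Double KO against Smchd1 KO had 0, but 1 with DESeq2, quantile normalization, array quality weights and centred chromosome medians, and 0 to 1 without 1 replicate. The interaction had 1, but 0 with a pseudocount of 0.1, no filter, a filter of 2 CPM, edgeR, centred chromosome medians and without the endoderm-marker samples, 2 with DESeq2, 3 with array quality weights and 0 to 2 without 1 replicate. A member count can move because a setting calls more or fewer genes of every kind. For Smchd1 KO against WT, 1 setting called as many as 9292 genes, where the reported fit called 144 of 16200. The share of all genes called is not given here for each setting. Nothing particular to the members is therefore read from how their counts moved. The cause of these moves was not tested.

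Small log2 differences that missed the threshold changed sign. For Dnmt1 the value in Smchd1 KO against WT became 0.0306 with quantile normalization. In Dux KO against WT it became 0.0444 with edgeR, 0.0373 with DESeq2, 0.149 with quantile normalization, 0.0833 with array weights, 0.011 with centred chromosomes, 0.0679 without the endoderm-marker samples and -0.0755 to 0.0679 without 1 replicate. In Double KO against WT it became 0.0476, 0.044, 0.1439, 0.0054, 0.04 and 0.0045 under those 6 settings in the same order, and -0.059 to 0.0316 without 1 replicate. In Double KO against Dux KO it became 0.0033 with edgeR, 0.0067 with DESeq2, 0.029 with centred chromosomes and -0.0755 to 0.0679 without 1 replicate, and in the interaction -0.0357 with quantile normalization. For Dnmt3b, Double KO against WT became 0.1339 with edgeR, 0.1281 with DESeq2, 0.1282 with quantile normalization, 0.1003 with array weights, 0.0243 with technical run 2, 0.0203 with centred chromosomes and -0.3685 to 0.2551 without 1 replicate. Its value in Double KO against Smchd1 KO became -0.0551 without the endoderm-marker samples and -0.214 to 0.4097 without 1 replicate. For Dnmt3a that comparison gave -0.0759 with array weights and -0.0652 to 0.247 without 1 replicate. Uhrf1 in Double KO against Dux KO gave 0.0178 without the endoderm-marker samples and -0.2142 to 0.0078 without 1 replicate. Its interaction gave -0.0067 with edgeR, -0.1107 with quantile normalization, -0.0066 with technical run 2 and -0.0818 to 0.1401 without 1 replicate. The interaction of Dnmt3l gave 0.4363 with array weights and -0.6274 to 0.0952 without 1 replicate. Tdg in quad KO gave 0.0061 with quantile normalization. The cause was not tested.

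With the replicate number as a block, which leaves Smchd1 KO out, the counts over all genes went from 644 to 32 in Dux KO against WT, from 255 to 25 in Double KO against WT and from 5619 to 4913 in quad KO, and 2 genes were called in Double KO against Dux KO with and without it. The block changed no member call: Dnmt3a had an adjusted p of 0.0146 in Dux KO and 0.00351 in quad KO. Same-numbered Tet TKO and quad KO samples had correlations of 0.023, 0.026 and -0.021, so these pairs share little beyond a number. Those of Dux KO and Double KO had 0.068, 0.504 and -0.114, so replicate 2 deviated together there and the others did not. Over the other settings, the counts over all genes ran from 51 to 9292 in Smchd1 KO (144 as reported), 2 to 6431 in Dux KO (644) and 2 to 3006 in Double KO against WT (255). They ran from 0 to 220 in Double KO against Dux KO (2), 99 to 2673 against Smchd1 KO (709), 0 to 2242 for the interaction (83) and 3541 to 10792 in quad KO (5619). Depth limits the members little, since even Tdg had over 20 CPM in every sample, and the intervals of the first table rest on the spread between replicates.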
